A study of Mus musculus with 2 samples.

Results

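The neuregulins Nrg1, Nrg2 and Nrg3 and the ErbB receptors Egfr, Erbb2, Erbb3 and Erbb4 were examined in the developing mouse hippocampus. These 7 genes, 3 ligands and 4 receptors, were chosen by name and matched by symbol among 55536 annotated genes. Total RNA came from hippocampus of female B6CASTF1/J mice, a first-generation hybrid strain, at 10 days of age. The 2 libraries were biological replicates 1 and 2 of 1 group, each made from 3 pooled females, and the tissue label speaks of a hippocampal layer without naming it. Both shared treatment, genotype, age and sex as labelled, so the members were described by their levels, and replicate 1 was set over replicate 2.

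Neuregulins are growth factors with an EGF-like domain, most of them made as membrane proteins that proteases release from the cell surface. They bind ErbB3 and ErbB4, whereas Egfr binds EGF, transforming growth factor alpha and heparin-binding EGF. Erbb2 has no known ligand of its own and serves as a partner, and Erbb3 has an impaired kinase and signals through its partners. In the hippocampus, ErbB4 is best known from inhibitory interneurons, where neuregulin signalling shapes the synapses they receive.

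The results on splicing turned on alternative exons of Erbb4 and Nrg1, shown here because they decide how the receptor is cut and signals and which EGF-like domain the ligand carries. All were read from GENCODE M21 transcripts, with positions in mouse build mm10 on the minus strand, and are written in the sense of the RNA. Erbb4 carries either of 2 juxtamembrane exons, which encode the stretch just outside the membrane. The JM-a form can be cut by ADAM17 and the JM-b form cannot. The JM-a exon (chr1:68290243-68290317, 75 bases) and the JM-b exon (chr1:68290439-68290483, 45 bases) are given with capitals for their longest shared run, 8 bases. The CYT-1 exon (chr1:68043908-68043955, 48 bases) adds a binding site for PI 3-kinase to the cytoplasmic tail, and capitals mark the codon of its tyrosine.
Erbb4 JM-a exon: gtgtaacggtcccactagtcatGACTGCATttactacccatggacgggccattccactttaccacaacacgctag
Erbb4 JM-b exon: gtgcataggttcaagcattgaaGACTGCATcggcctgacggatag
Erbb4 CYT-1 exon: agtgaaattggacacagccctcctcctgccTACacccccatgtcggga

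Nrg1 ends its EGF-like domain with an alpha or a beta exon. The alpha exon (chr8:31838261-31838328, 68 bases) and the beta exon (chr8:31837670-31837728, 59 bases) are shown with capitals for the in-frame cysteine codons. Over the 59 positions of the beta exon, 28 bases were equal to those of the alpha exon, 47.5%. The 24-base exon at chr8:31831205-31831228 gives the beta 1 form and is shown without capitals.
Nrg1 EGF alpha exon: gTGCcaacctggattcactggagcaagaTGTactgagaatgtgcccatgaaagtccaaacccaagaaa
Nrg1 EGF beta exon: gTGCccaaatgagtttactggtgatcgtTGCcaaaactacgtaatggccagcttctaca
Nrg1 beta 1 exon: agcatcttgggattgaatttatgg

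The libraries held 29858328 expected counts (estimated reads) in replicate 1 and 32275110 in replicate 2. All 6 glutamatergic and all 10 hippocampal field markers reached a TPM of 1, among them Prox1, a marker of dentate granule cells, with 39.9 TPM in replicate 1 and 44.9 TPM in replicate 2. TPM is transcript abundance corrected for length and scaled to a fixed total, so it can be compared between genes. Of the 11 interneuron markers that reached a TPM of 1, of 12 listed, somatostatin (Sst) had 203 and 204 TPM. Cck had 214 TPM in replicate 1 and 249 TPM in replicate 2, and Gad1 82.5 and 108 TPM. By scaled counts, 10 of the 12 were higher in replicate 2, with a median log2 ratio of replicate 1 over replicate 2 of -0.26. This lean was not particular to interneurons. Of the hippocampal field markers, 9 of 10 were higher in replicate 2, with a median of -0.28. Of the astrocyte markers, 7 of 9 were, with a median of -0.18. Markers of neighbouring tissue went the other way, with 1 of 9 higher in replicate 2. The libraries were unlike in the summed markers of myelinating oligodendrocytes, at 212 TPM in replicate 1 and 615 TPM in replicate 2. They were also unlike in those of neighbouring brain tissue, at 205 and 144 TPM. Markers of choroid plexus and ependyma summed to 443 and 690.5 TPM, a difference that lay in Ttr, at 422 and 670.1 TPM. Folr1, the next highest of that list, had 7.51 and 7.71 TPM. Nothing in the labels separates the mice, the dissection and the library as sources of such differences. In whole tissue, fewer cells of a type and less RNA per cell cannot be told apart.

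Nrg3 was the most abundant of the 7 and Erbb4 the most abundant receptor, while Erbb3 stayed under a TPM of 1 in the table estimated from alignments. In all, 6 of 7 reached a TPM of 1 in both libraries, where 59.1% of 22015 nuclear protein-coding genes did. Levels are given below for replicate 1 and replicate 2 and then as mean ± SD (n = 2), from that table. The SD rests on 2 pools and measures only the spread between these libraries.

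Among the ligands, Nrg3 (ENSMUSG00000041014.17, chr14:38368952-39473088, minus strand), which binds ErbB4, had 33.8 TPM in replicate 1 and 27.8 TPM in replicate 2, or 30.8 ± 4.27 TPM. It ranked at position 3628 among the protein-coding genes, above 83.5% of them, and rested on 2323 and 2105 counts. Nrg1 (ENSMUSG00000062991.7, chr8:31814551-32884029, minus strand), the founding member of the family, had 8.63 and 7.80 TPM, or 8.22 ± 0.587 TPM, from 514 and 478 counts. The libraries gave the same order of these ligands, with no overlap between the values of Nrg3 and Nrg1. Nrg2 (ENSMUSG00000060275.13, chr18:36017652-36197380, minus strand), which like Nrg1 binds ErbB3 and ErbB4, had 4.52 and 3.64 TPM, or 4.08 ± 0.622 TPM, from 183 and 156 counts. Nrg3 thus made up 71.4 ± 0.831% of the summed neuregulin TPM, Nrg1 19.1 ± 1.07% and Nrg2 9.46 ± 0.242%.

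Among the receptors, Erbb4 (ENSMUSG00000062209.15, chr1:68032186-69108059, minus strand), the only one that both binds neuregulins and has a fully active kinase, had 18.4 and 18.0 TPM, or 18.2 ± 0.290 TPM, from 2578 and 2817 counts. Egfr (ENSMUSG00000020122.16, chr11:16752203-16918158, plus strand) had 8.58 and 8.74 TPM, or 8.66 ± 0.113 TPM, from 1174 and 1199 counts. By these TPM values, both receptors differed less between the libraries than any of the ligands did. With DESeq2 scaling of counts Erbb4 differed more than Nrg1, at log2 ratios of -0.13 and 0.10. Erbb2 (ENSMUSG00000062312.5, chr11:98412470-98437716, plus strand) was lower, at 1.83 and 1.87 TPM, or 1.85 ± 0.0283 TPM, from 186 and 169 counts. It shares its last 9 bases with Mien1 on the other strand, at 47.95 and 53.3 TPM, and whether strand was used in counting is not given, so its level is uncertain to that extent. Erbb3 (ENSMUSG00000018166.8, chr10:128567523-128589652, minus strand) had 0.31 TPM in replicate 1 and 0.68 TPM in replicate 2, or 0.495 ± 0.262 TPM. Its 38 and 91 counts have exact Poisson 95% intervals of 26.9 to 52.2 and 73.3 to 112, which do not overlap and cover counting error only. Erbb4 made up 62.3 ± 1.23% of the summed receptor TPM, Egfr 29.7 ± 0.273%, Erbb2 6.34 ± 0.0723% and Erbb3 1.69 ± 0.889%.

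**Figure D1:**
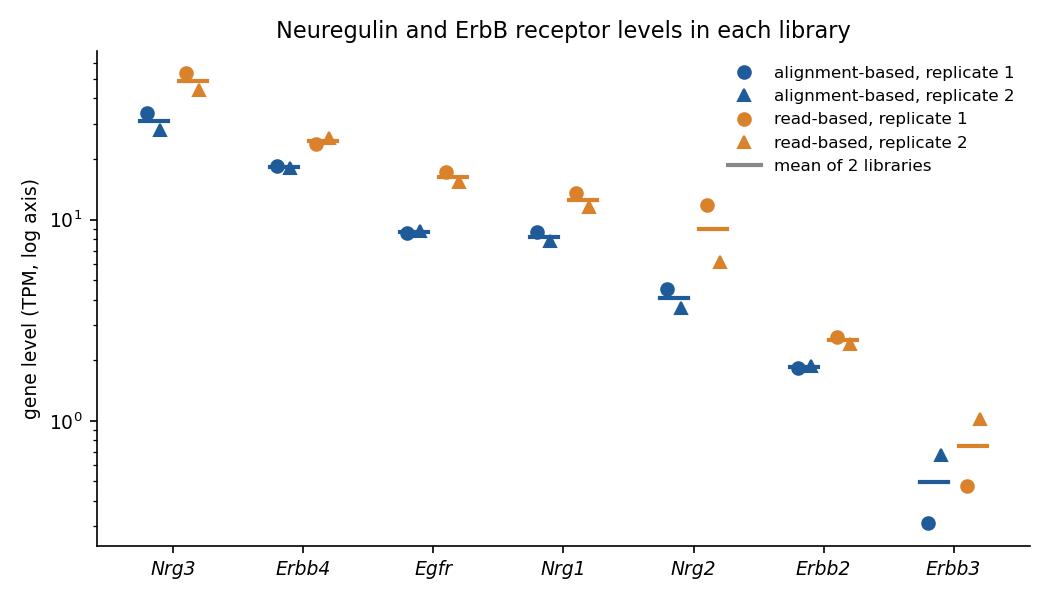
Gene level in TPM on a log axis for each member, with replicate 1 as circles, replicate 2 as triangles and the mean of both as a bar, in the table estimated from alignments (blue) and the read-based table (orange), estimated without those alignments. Nrg3 lies highest in both tables and Erbb3 lowest, at 0.31 and 0.68 TPM in the alignment-based table, the only member whose libraries are more than 2-fold apart in both tables.

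Neighbours in the order of levels were compared by the log2 ratio of TPM plus 0.1 within each library. A pair counted as different where replicates 1 and 2 gave ratios of equal sign and the mean was larger than 2 SD. With 2 libraries the smallest exact sign-flip p is 0.5, so no p was given. By this rule 5 of the 6 neighbouring pairs differed, and 10 of 11 pairs in all. Neighbours were ordered by the same mean levels, so their direction was set beforehand and the rule checked only the spread between libraries. How often other gene pairs pass the rule was not computed. Nrg3 exceeded Erbb4 by 0.75 ± 0.18 on the log2 scale, Erbb4 exceeded Egfr by 1.06 ± 0.04, and Nrg1 exceeded Nrg2 by 1.00 ± 0.11. Egfr and Nrg1 were not separated, at 0.08 ± 0.12 for Egfr over Nrg1, with Nrg1 the higher in replicate 1 and Egfr in replicate 2.

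Within the ligands, the log2 ratio of Nrg3 over Nrg1 was 1.89 ± 0.10 and that of Nrg3 over Nrg2 was 2.89 ± 0.02, or 7.39-fold. Within the receptors, Erbb4 over Erbb2 was 3.23 ± 0.04, or 9.38-fold, and Egfr over Erbb2 was 2.17, or 4.49-fold. Erbb4 over Erbb3 was 5.50 in replicate 1 and 4.54 in replicate 2, a spread that comes from Erbb3. Erbb2 exceeded Erbb3 by 1.79 ± 0.64 and Nrg2 exceeded Erbb2 by 1.09 ± 0.24.

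A second table of the same reads, estimated directly from them and called read-based here, gave every member a higher TPM, by 1.35-fold for Erbb4 to 2.21-fold for Nrg2. The order of the 7 means was the same in both tables. Rescaling TPM over nuclear protein-coding genes alone multiplies all genes of a library by the same factor, so it cannot change the order within a library. It put Nrg3 at 68.6 TPM, Erbb4 at 40.6 TPM and Erbb3 at 1.11 TPM, so the printed levels depend on which RNAs share the total. Egfr over Nrg1 passed the rule in the read-based table, at 0.37 ± 0.05, and Nrg1 over Nrg2 did not, at 0.55 ± 0.50, with Nrg2 at 11.9 TPM in replicate 1 and 6.16 TPM in replicate 2 there. When only coding transcripts were summed, an alternative added after seeing the data, Egfr over Nrg1 again passed, at 0.53 ± 0.07. Nrg2 over Erbb2, at 1.17 ± 0.75, and Erbb2 over Erbb3, at 1.22 ± 1.43, did not.

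The summed neuregulins came to 46.95 TPM in replicate 1 and 39.2 TPM in replicate 2, and the summed receptors to 29.1 and 29.3 TPM. The summed ligand level was thus 1.61-fold and 1.34-fold the summed receptor level. The receptor sum was nearly the same in both libraries, and the ligand sum was higher in replicate 1.

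Nrg1 transcripts start at widely spaced first exons, which set the amino terminus of the protein. Type II transcripts begin farthest upstream, at chr8:32883516-32884029, type I at chr8:32009010-32009491, 874.5 kb away, and type III, with the cysteine-rich domain that keeps the protein in the membrane, at chr8:31917537-31918391, 966.0 kb away. Shares below are the deposited percent of a gene's transcripts, which corrects for length. Type I took 37.7% in replicate 1 and 33.0% in replicate 2, type III 33.3% and 29.5%, and type II 24.4% and 24.5%. By these shares no type held a majority. By estimated reads, type I did, at 54.8% in replicate 1 and 57.4% in replicate 2, with type II at 24.3% and 20.9% and type III at 18.1% and 18.9%. Types II and III thus changed places between the length-corrected shares and the reads.

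The type III share rested in part on Nrg1-204, a retained-intron transcript of 3 exons, at 24.4% and 16.1%. Among coding transcripts, type I held 45.3 ± 1.70%, type II 37.6 ± 2.17% and type III 17.1 ± 3.88%. In the read-based table the coding shares were 45.1 ± 7.59% for type I, 28.0 ± 2.20% for type II and 26.9 ± 9.79% for type III. Type I led in both tables, and types II and III could not be ordered in the read-based one.

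Nrg1 transcripts with the EGF beta exon shown above but not the alpha exon held 62.3 ± 3.35%. Those with the alpha exon but not the beta exon held 3.60 ± 0.594%, and 34.1 ± 2.76% carried neither or both. The beta form led in each library, at 59.9% in replicate 1 and 64.7% in replicate 2, against 4.02% and 3.18% for the alpha form. The leading Nrg1 transcript, Nrg1-203 (type I, EGF beta, with the beta 1 exon), held 25.3% and 26.7%, and a type II transcript with the EGF beta exon held 24.4% and 17.4%.

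Erbb4 transcripts with the JM-a exon held 48.4% in replicate 1 and 49.3% in replicate 2, and the JM-b transcript held 47.4% and 48.8%. In the read-based table JM-a held 52.1 ± 1.70% and JM-b 44.4 ± 0.484%. The JM-b share came from 1 transcript, Erbb4-205, which is annotated as 2196 bases with an incomplete 3′ end, whereas the main JM-a transcript, Erbb4-202, is 12037 bases long. By estimated reads, JM-a held 85.0% and JM-b 14.7%. The near equality of JM-a and JM-b thus held for length-corrected shares and not for reads. Reads from beyond the annotated end of Erbb4-205 cannot be assigned to it, so read shares cannot tell which form was more common.

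Of the Erbb4 transcripts that reach the cytoplasmic tail, 5.61% in replicate 1 and 6.998% in replicate 2 held the CYT-1 exon, or 6.30 ± 0.980%. The read-based table gave 7.70 ± 0.511%. The rest were Erbb4-202, which skips the exon and so lacks the PI 3-kinase site. CYT-1 was the minor form in both libraries and both tables, but 51.2 ± 0.615% of Erbb4 transcripts ended before this exon in the annotation and could not be classed.

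**Figure D2:**
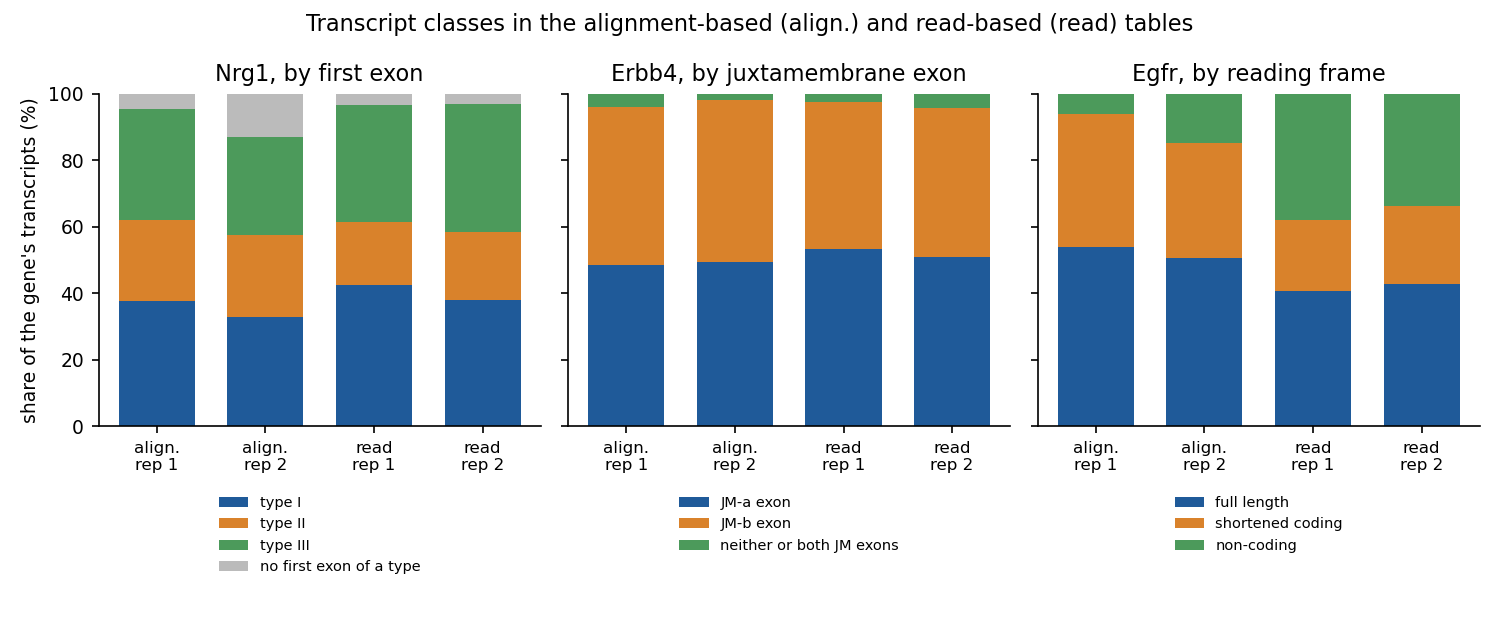
Share of each gene's transcripts in percent, stacked to 100, for Nrg1 by first exon, Erbb4 by juxtamembrane exon and Egfr by reading frame, in replicates 1 and 2 of the alignment-based and the read-based table. Nrg1 is split over 3 first exons, JM-a and JM-b are close to equal for Erbb4, and the non-coding Egfr share is 10.5% on average in the alignment-based table and 35.9% in the read-based one.

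Nrg3 was led by Nrg3-201, at 53.5% in replicate 1 and 57.1% in replicate 2. A retained-intron transcript, Nrg3-204, held 19.2% and 15.7%, Nrg3-203 held 16.4% and 14.6%, and Nrg3-202 held 10.9% and 12.6%. The order of these 4 was the same in both libraries. Nrg2 was led by Nrg2-203, at 56.9% and 57.9%, while the non-coding Nrg2-201 held 30.4% and 11.8% and the partial coding Nrg2-204 held 7.31% and 19.6%.

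Egfr was led by the full-length Egfr-201, of 28 exons and a coding length of 3630 bases, at 53.9% in replicate 1 and 50.5% in replicate 2. Egfr-202, of 16 exons and a coding length of 1965 bases, held 40.1% and 30.9%. By estimated reads the full-length form held 83.2 ± 1.44%. The read-based table gave the full-length form 41.8 ± 1.498%, the shortened coding forms 22.2 ± 1.39% and the non-coding transcripts 35.9 ± 2.89%, so the full-length form led in both tables.

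For Erbb2 the transcripts were not resolved. The coding Erbb2-201 held 100% in replicate 1 and 42.5% in replicate 2, and the non-coding Erbb2-202, of 26 exons, held 0% and 42.9%, while the gene's total hardly moved. In the read-based table Erbb2-202 led on average, at 55.6 ± 22.4%. Erbb3 had 1 annotated transcript. The leading transcript by mean share was the same in both tables for 5 of 7 members, and differed for Erbb2 and Erbb4. For Nrg2 this rested on a near tie in the read-based table, where Nrg2-203 held 38.1 ± 16.4% and the non-coding Nrg2-201 held 37.8 ± 9.02%. There Nrg2-201 led in replicate 1, at 44.2% against 26.4%, and Nrg2-203 led in replicate 2, at 49.7% against 31.4%.

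Replicate 1 was set over replicate 2 gene by gene with an exact conditional binomial test (two-sided) of counts scaled by TMM. Calls needed a Benjamini-Hochberg adjusted p under 0.05 together with at least a 2-fold difference, 1 on the log2 scale. This compares 2 libraries, with no replicate check. Of 20544 genes tested, 2.85% were called, 2.25% as higher in replicate 1 and 0.599% as higher in replicate 2. Among 15465 protein-coding genes the shares were 1.27%, 0.776% and 0.491%. All 7 members were tested and 1 was called, Erbb3, with a log2 ratio of -1.22 ± 0.28 (counting SE) and an adjusted p of 5.16e-05 by the exact test. Its level was thus 2.33-fold higher in replicate 2. Among 1951 protein-coding genes with 0.5 to 2 times its counts, 36 (1.85%) differed as far or farther in either direction. Scaling by spike-ins instead of TMM moved the median log2 ratio of all tested genes to 0.29, against 0.00, gave Erbb3 a log2 ratio of -0.93 and an adjusted p of 0.00144 by the exact test, and ended the call.

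The other 6 members were not called, and the median log2 ratio of all 7 was 0.13, against 0.00 over all tested genes. Nrg3 had a log2 ratio of 0.17 ± 0.04 with an adjusted p of 0.000688 by the exact test, and Erbb4 -0.10 ± 0.04 with an adjusted p of 0.0415 by the exact test, both far under the fold required. With the fold requirement dropped, 27.4% of all tested genes met the 0.05 threshold of the exact test after adjustment. Nrg2 had 0.26 ± 0.16, Erbb2 0.17 ± 0.15, Nrg1 0.13 ± 0.09 and Egfr 0.00 ± 0.06, with adjusted p-values of 0.238 to 1 by the exact test. Under spike-in scaling the log2 ratios of Egfr, 0.29, and Erbb4, 0.19, turned positive. Neither exceeded the median of all tested genes, which that scaling had itself moved to 0.29.

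Markers of oligodendrocytes, in whose lineage Erbb3 is known to be expressed, moved with it in part. Of the 12 myelinating oligodendrocyte markers, 11 were called as higher in replicate 2, with a list median of -1.65 on the log2 scale, and none was at 0. Mbp, a main protein of myelin, had 80.5 TPM in replicate 1 and 253 TPM in replicate 2. The remaining marker, Aspa, had 1.64 TPM in replicate 1 and 0.53 TPM in replicate 2 and was not called. The 9 oligodendrocyte precursor markers summed to 256 TPM in replicate 1 and 268 TPM in replicate 2, with a median log2 ratio of -0.17, and none was called. The 6 Schwann cell and nerve markers had a median log2 ratio of -0.19 over 5 tested genes, and Foxd3 was at 0 in both libraries. The 5 choroid plexus and ependyma markers had a median log2 ratio of -0.21, with none called and none at 0. Most of their sum was Ttr, the carrier protein transthyretin, at 422 TPM in replicate 1 and 670.1 TPM in replicate 2. Over all 11 marker lists of 90 genes, 13 were called as higher in replicate 2, among them Pvalb of the interneuron list, and 2 as higher in replicate 1. Both of these, Tshz2 at 28.4 and 6.79 TPM and Gbx2 at 0.24 and 0.04 TPM, came from the list of neighbouring tissue. The part of any of these cells in the Erbb3 difference was not tested.

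**Figure D3:**
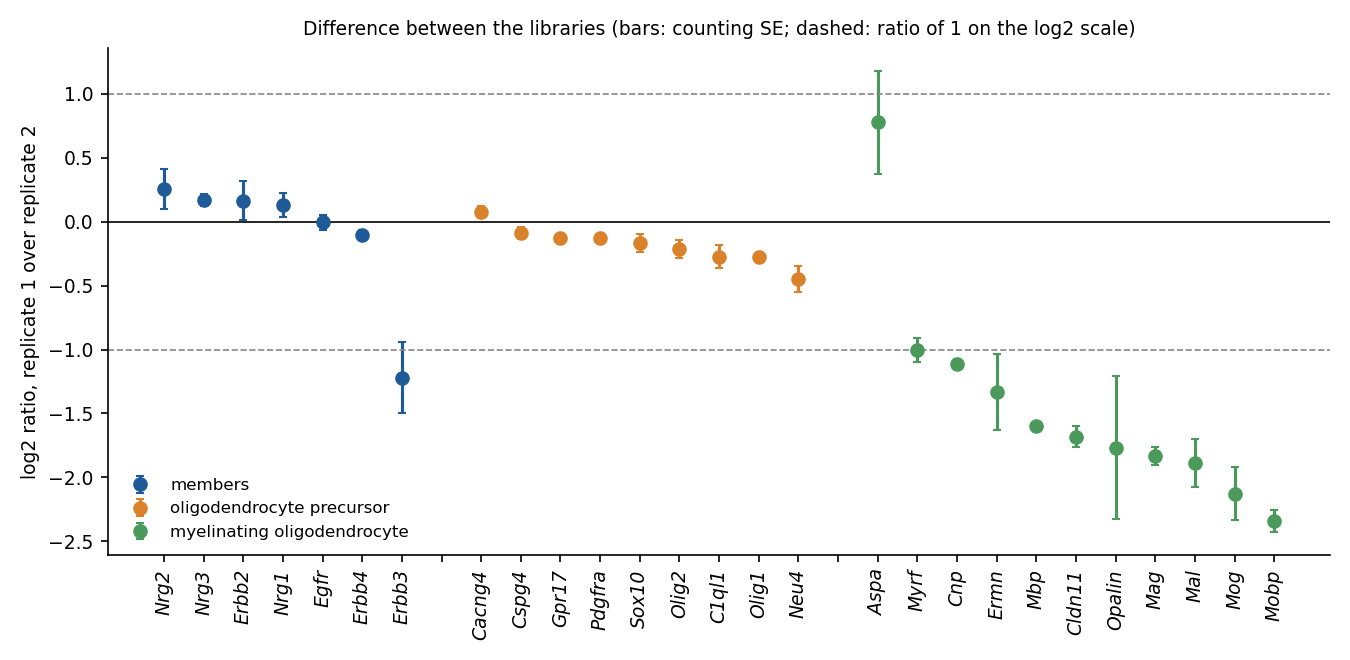
Log2 ratio of replicate 1 over replicate 2, with bars for the counting SE, for the 7 members, 9 oligodendrocyte precursor markers and 11 of the 12 myelinating oligodendrocyte markers, with dashed lines at a log2 ratio of 1 in either direction. Erbb3, at -1.22, lies among the myelinating markers, the precursor markers lie between -0.45 and 0.08, the other 6 members between -0.10 and 0.26, and Aspa is the myelinating marker above 0.

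Of 79 further pathway genes in 5 lists, 72 reached a TPM of 1 in both libraries, where 59.1% of nuclear protein-coding genes did. None of the 75 tested was called between the libraries, in either direction. Over all tested protein-coding genes 1.27% were called, a share at which few calls would fall among 75 genes. The median log2 ratios of 4 of these lists lay between -0.10 and -0.04, and that of the other EGF-family ligands was 0.23 over 4 tested genes. Among the other EGF-family ligands, 2 of 8 reached that level. Tgfa, a ligand of Egfr, had 15.9 TPM in replicate 1 and 20.01 TPM in replicate 2, and Hbegf, which binds Egfr and ErbB4, had 7.08 and 7.09 TPM. Egf itself had 1.22 and 0.87 TPM, and Btc 0.31 and 0.13 TPM. Nrg4, the remaining neuregulin, had 0.25 and 0.13 TPM, from 6 and 3 counts.

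Of 13 genes of the list of sheddases and secretases, which holds proteases that release EGF-family ligands or cut ErbB4 and also inactive rhomboids, 12 reached a TPM of 1, with a list median of 24.2 ± 1.72 TPM. The highest were Rhbdl1, a rhomboid family member, at 44.8 ± 1.90 TPM, and Aph1a, a subunit of gamma-secretase, at 42.4 ± 3.12 TPM. Bace1, which cleaves type III Nrg1, had 40.0 ± 1.55 TPM, and Psenen, another gamma-secretase subunit, had 37.5 ± 3.83 TPM. Rhbdf2, an inactive rhomboid that helps ADAM17 reach the cell surface, was under a TPM of 1, at 0.41 and 0.54 TPM.

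All 28 adaptors and kinases were found at a TPM of 1 or more, with a median of 49.7 ± 2.55 TPM. Fyn, a Src-family kinase, had 114 ± 9.73 TPM, and Hras, a small GTPase of the Ras family, 103 ± 5.60 TPM. All 17 genes of receptor restraint and turnover were found too, with a median of 19.4 ± 3.30 TPM. They were led by the chaperones Hsp90ab1, at 726 ± 28.2 TPM, and Hsp90aa1, at 449 ± 20.7 TPM, then the ubiquitin ligase Nedd4, at 156 ± 1.13 TPM, and the phosphatase Ptprz1, at 135 ± 18.6 TPM.

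The 13 ErbB4 scaffolds and nuclear partners were all found, with a median of 18.2 ± 0.233 TPM. Dlg4, the postsynaptic scaffold PSD-95, had 315 ± 9.31 TPM, and Dlg2, its relative PSD-93, 116 ± 0.240 TPM. Ncor1, a nuclear co-repressor, had 103 ± 9.89 TPM and Dlg3, the scaffold SAP102, 58.7 ± 1.52 TPM. These genes have many other roles, and their levels say nothing about how much of each protein meets ErbB4.

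**Figure D4:**
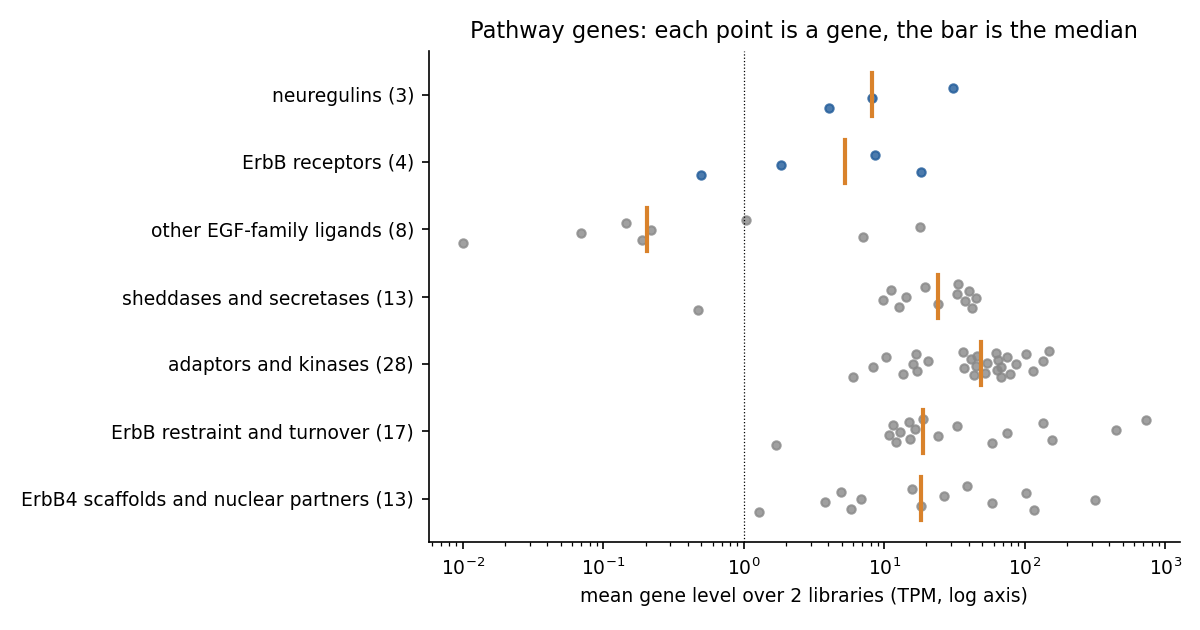
Mean TPM over both libraries on a log axis for the 3 neuregulins, the 4 ErbB receptors and the 79 genes of 5 pathway lists, with a bar at each list's median and a dotted line at a TPM of 1. Of the 79, the 7 that do not reach that level in both libraries are 6 of the EGF-family ligands and Rhbdf2, with Ereg at the left end.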

How the data were processed

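Total RNA libraries, reduced in ribosomal RNA, stranded and with ERCC spike-ins, were made from 300 ng of RNA, per the labels. Per the labels, build mm10 was used. Per the deposited notes, annotation was GENCODE M21, with programs, versions and strand use not given in the sources used here. Expected counts and estimated counts in the deposited tables are unnormalized read estimates. TPM in the deposited tables sums to the same total in each library, with spike-ins counted in. FPKM in the deposited tables was used in 1 alternative. The percent of each gene's transcripts (isoform percentage) is as deposited. Alignment-based tables were the main source, and read-based values were summed per gene.

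Here, expected counts were rounded, and genes with 10 or more counts over both libraries were tested with TMM sizes from edgeR 4.0.16, with 0.5 counts added for ratios. With 1 library on each side, no quasi-likelihood fit was possible. The libraries held 29858328 and 32275110 expected counts, spike-ins 0.341% and 0.393% of them. Nrg1 types were classed by first exon and Erbb4 forms by internal exons of the annotation. Members, lists and tests were chosen with earlier results of these data known. Named genes were the 7 members, up to 4 genes per pathway list and 3 per marker list with the highest mean TPM, genes called between the libraries and transcripts with a share of 10% or more. Egf, Btc, Nrg4, Rhbdf2, Aspa, Foxd3 and Mien1 were named after their values were seen. On simulated data with 20575 genes tested, 100 of 100 genes raised 4-fold and 100 of 100 lowered 4-fold were called, as was 1 unchanged gene. The simulated counts held counting noise only, with no variation between pools, and the changed genes had 100 or more counts. The simulation thus cannot tell how often real pools give false calls, or how smaller changes fare. Alternatives covered scaling (DESeq2 1.42.0 size factors, total counts, spike-ins), TPM rescaled over protein-coding genes, filters, pseudocounts, tables and leaving out each library. R 4.3.3 and Python 3.11.15 were used. Promoters and protein sequences were not used here, and some genes that the naming rule selects are not reported here.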

Additional observations from a re-analysis of the deposited data

How the results depend on the processing

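No paired analysis was possible because the 2 libraries form 1 group and no groups share replicate numbers. With spike-in scaling 1276 genes were called between the libraries, against 585. The log2 ratios of Egfr, 0.29, and Erbb4, 0.19, were reversed in sign, while the median of all tested genes itself moved to 0.29. The other settings gave 508 to 689 calls and kept the Erbb3 call, at -1.14 to -1.25. In the read-based table the Nrg1 shares were 40.2% for type I, 19.7% for type II, 36.9% for type III and 6.14% for the EGF alpha exon without the beta exon. There Erbb4 shares were 52.1% for JM-a, 44.4% for JM-b, 4.01% for CYT-1, 48.1% for skipping it and 47.9% for ending before it, and Egfr shares were 41.8% full length, 22.2% shortened and 35.9% non-coding. The causes were not tested. Rescaled over nuclear protein-coding genes, mean levels were 68.6 TPM for Nrg3, 40.6 for Erbb4, 19.3 for Egfr, 18.3 for Nrg1, 9.09 for Nrg2, 4.13 for Erbb2 and 1.11 for Erbb3. Leaving out a library leaves 1, so pairs could not be called and the library comparison could not be made. Without replicate 1 the leading transcript of Erbb2 became Erbb2-202. FPKM and pseudocounts of 1 and 0.01 changed no call among the pairs. Within a library FPKM is proportional to TPM, so with FPKM only the weight of the pseudocount could move these ratios. At a TPM of 5, 68 pathway genes passed, and 74 passed a TPM of 1 in the read-based table. Depth limits Erbb3, with 38 and 91 counts, and its share of receptor TPM.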
